A study of Mus musculus with 12 samples.

Results

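Voltage-gated potassium channel alpha subunits form the potassium-selective pores that open when a neuron depolarises. A set of 36 such genes was followed here. They were chosen by symbol, as the rows of the count tables whose Ensembl identifiers map to members of the Kcna, Kcnb, Kcnc, Kcnd, Kcnf, Kcng, Kcnh, Kcnq, Kcns and Kcnv families. All 36 were found among the 41388 genes of each table. The choice used gene names and no measured value.

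RNA was sequenced from sensory neurons of dorsal root ganglia, which lie beside the spinal cord and carry touch, temperature and pain signals from skin, muscle and viscera. The mice were C57BL/6, 3 months old, and carried in all groups the RetFloxedEGFP allele (a knock-in at the Ret locus, heterozygous) together with Scn10a<tm2(cre)Jnw>, which puts Cre recombinase under control of the NaV1.8 sodium channel gene. EGFP appears only after Cre has cut the Ret allele, so the sort by EGFP kept cells with an active Ret locus in which NaV1.8-Cre had acted at some time. For 4 libraries 1 label field lists only 1 of the 2 alleles. The 12 libraries fall into 4 groups of 3 by sex and level, where L345 stands for pooled lumbar ganglia L3 to L5 and L6S1 for ganglia L6 and S1. Library letters are A to C in males at either level and in females at L6S1, and B to D in females at L345. Each library was its own pool of 2 to 8 mice, and the labels do not say whether pools of the 2 levels came from the same mice.

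The libraries held 16176436 to 26694404 counts, fewest in A of female L6S1. The listed markers of small-diameter sensory neurons summed to 13118 to 14360 CPM (counts scaled to library size) at L345 and 13774 to 19656 CPM at L6S1, and none of these 12 genes was at 0. Markers of other cells were present as well. Satellite glia and Schwann cell markers summed to 3711 to 4378 CPM at L345 and 3909 to 4766 CPM at L6S1, and large myelinated neuron markers, chiefly neurofilament genes, to 3786 to 4630 and 1642 to 4472 CPM. Fibroblast markers were higher at L6S1 (148 to 529 CPM against 86.2 to 109), and so were immune cell markers: they summed to 4.26 to 5.33 CPM at L345 and 11.0 to 16.4 CPM in 5 L6S1 libraries, with 193 CPM in the remaining one, C of the females. Female L6S1 B and C stood apart from the other libraries, with the lowest large-neuron sums (1642 and 2553 CPM). In bulk RNA, fewer cells of a type and less RNA per cell cannot be told apart. Nothing beyond the separate pools says how independent the libraries are, so p-values measure the spread between these pools.

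Kv channels assemble as tetramers of alpha subunits, each with a voltage sensor and a share of the pore. The Shaker, Shab, Shaw and Shal subfamilies (Kcna, Kcnb, Kcnc and Kcnd) make delayed rectifier or rapidly inactivating A-type currents that repolarise the action potential and space its repeats, while the Kcnf, Kcng, Kcns and Kcnv subunits are electrically silent alone and join Shab subunits to change their gating. The Kcnh genes encode the EAG, ERG and ELK channels, and the Kcnq genes encode subunits of the slow M-current, which holds neurons near rest. In nociceptors, loss of Kv current is known as a means of raising excitability.

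Levels between genes were compared per length, as RPKM computed from TMM-scaled CPM and the deposited exon length (mean ± SD, n = 12 libraries). Kcnd1, an A-type Shal subunit, was at 56.2 ± 9.80 RPKM, above every other member in each library. Kcnh6, an ERG channel, followed at 18.9 ± 6.02 RPKM, then Kcns3, a silent modifier, at 15.6 ± 3.56 RPKM and Kcna6, a Shaker delayed rectifier, at 13.9 ± 2.28 RPKM. Among these 3, neighbours in the order differed by less than their spread over the libraries. A second tier held Kcnv1 (8.34 ± 1.59 RPKM), Kcna4 (7.71 ± 1.89 RPKM), Kcnd3 (7.57 ± 1.71 RPKM) and Kcnc2 (7.29 ± 1.54 RPKM), which again lay within 1 SD of each other. Per library read rather than per length the order changed, since Kcnb2 has 15165 bases of exon: it was second to Kcnd1 in CPM (92.6 ± 33.9 against 297 ± 51.8 CPM) but ninth in RPKM (6.10 ± 2.23).

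**Figure D1:**
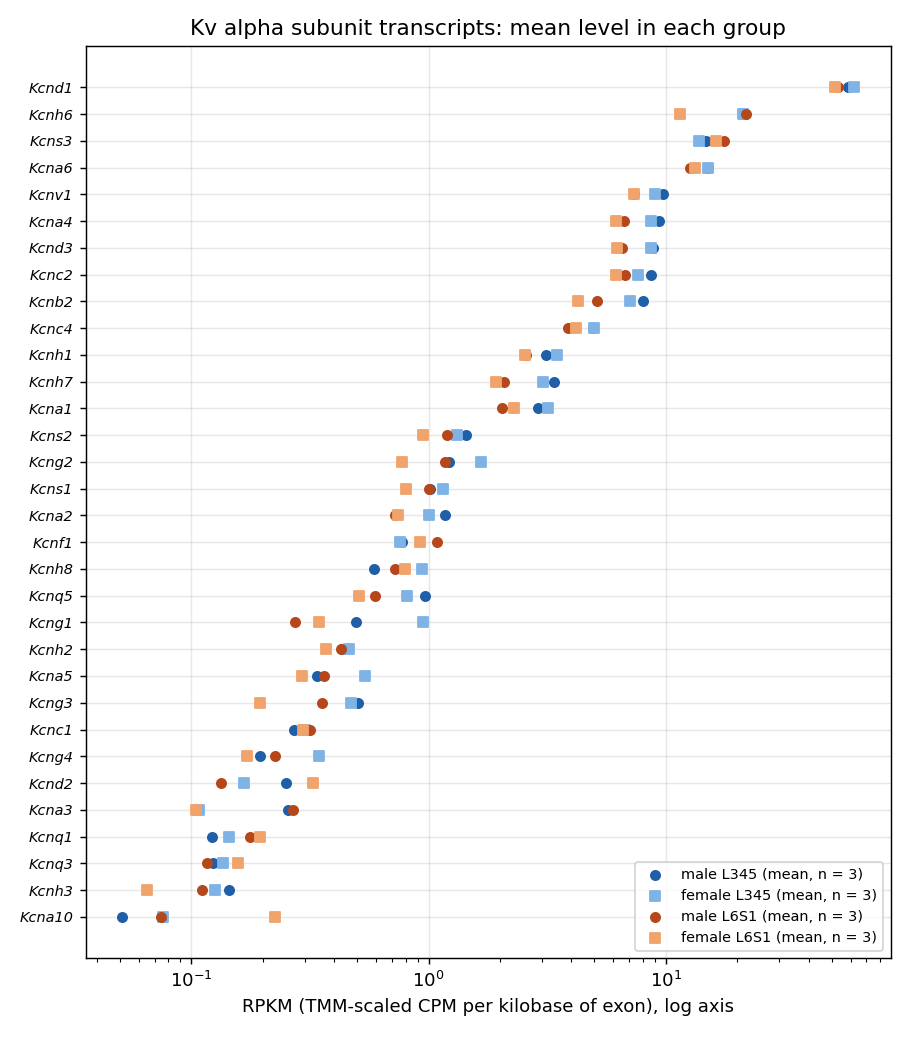
Mean level of the 32 tested members in each of the 4 groups (n = 3 libraries each), in RPKM on a log axis, with genes ordered by their mean over all libraries. Kcnd1 stands alone at the top in all groups, and the female L6S1 mean of Kcnh6 (11.5 RPKM) lies apart from its other group means (21.1 to 21.7 RPKM).

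Levels were uneven within the subfamilies. In the Shaker group Kcna6 and Kcna4 stood over Kcna1 (2.60 ± 0.875 RPKM) and Kcna2 (0.908 ± 0.350 RPKM), the pair known from the axons of myelinated fibres, and Kcna3, Kcna5 and Kcna10 were below 0.4 RPKM on average. In the Shal group Kcnd1 and Kcnd3 stood over Kcnd2 (0.219 ± 0.0948 RPKM). In the Shaw group, whose channels open and close fast, Kcnc2 was above Kcnc4 (4.49 ± 0.831 RPKM) and Kcnc1 (0.296 ± 0.0627 RPKM). In the ERG group Kcnh2 (0.424 ± 0.0849 RPKM), known mainly from the heart, was the lowest, below Kcnh7 (2.61 ± 1.17 RPKM). The M-current genes were low: Kcnq5 was at 0.721 ± 0.220 RPKM, Kcnq1, an epithelial and cardiac subunit, at 0.159 ± 0.0806 RPKM and Kcnq3 at 0.133 ± 0.0435 RPKM.

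The filter on low counts kept 32 of the 36 members. The other 4 were close to 0: Kcnv2 had 1 read in all libraries together, Kcna7 2 reads, Kcnh4 14 reads and Kcnh5 31 reads. A count of 3, taken as the floor for detection, is 0.112 to 0.185 CPM in these libraries and covers counting error only. Kcnh5 exceeded that floor in 3 libraries, at 0.241 CPM (male L345 C), 0.195 CPM (female L345 C) and 0.488 CPM (female L6S1 A). No fold change is given for these 4 genes.

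The promoter sequences below lie before annotated start sites of these genes. RefSeq (GRCm38.p6) gave a window for 25 of the 36 members, and the 250 bases before the start were searched on both strands for 4 short motifs that do not contain each other. They were the core promoter's TATA box, spelled TATAAA, and the GC box bound by Sp-family factors, spelled GGGCGG. The others were the cAMP response element, spelled TGACGTCA, and the core site of RUNX factors, spelled TGTGGT. Printed 5′ to 3′ on the gene's strand, with matches in capitals, are the windows of the 4 members with the smallest p between levels that had one, and of Kcnh6. They lie at chr2:107290339-107290588 (Kcna4, plus strand), chr3:105451640-105451889 (Kcnd3, plus), chr17:83631896-83632145 (Kcng3, minus), chr1:21961943-21962192 (Kcnq5, minus) and chr11:106007898-106008147 (Kcnh6, plus).
Kcna4: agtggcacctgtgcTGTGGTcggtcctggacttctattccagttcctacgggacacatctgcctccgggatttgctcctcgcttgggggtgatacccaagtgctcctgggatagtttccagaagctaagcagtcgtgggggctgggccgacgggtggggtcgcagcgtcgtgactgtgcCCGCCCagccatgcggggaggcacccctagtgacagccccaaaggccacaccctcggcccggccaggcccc
Kcnd3: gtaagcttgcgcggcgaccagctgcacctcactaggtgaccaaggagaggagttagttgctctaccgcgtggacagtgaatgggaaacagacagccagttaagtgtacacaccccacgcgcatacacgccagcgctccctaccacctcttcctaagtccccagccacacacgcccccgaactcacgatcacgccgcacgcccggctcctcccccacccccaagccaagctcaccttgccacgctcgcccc
Kcng3: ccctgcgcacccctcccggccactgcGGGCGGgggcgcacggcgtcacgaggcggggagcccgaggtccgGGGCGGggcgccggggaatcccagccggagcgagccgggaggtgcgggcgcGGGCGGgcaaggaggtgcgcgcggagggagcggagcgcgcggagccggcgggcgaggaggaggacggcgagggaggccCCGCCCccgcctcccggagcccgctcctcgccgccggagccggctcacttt
Kcnq5: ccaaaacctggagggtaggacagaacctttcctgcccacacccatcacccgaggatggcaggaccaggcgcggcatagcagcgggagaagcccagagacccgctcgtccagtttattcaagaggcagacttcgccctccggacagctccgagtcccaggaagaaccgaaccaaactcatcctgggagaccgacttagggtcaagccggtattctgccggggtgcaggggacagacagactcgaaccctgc
Kcnh6: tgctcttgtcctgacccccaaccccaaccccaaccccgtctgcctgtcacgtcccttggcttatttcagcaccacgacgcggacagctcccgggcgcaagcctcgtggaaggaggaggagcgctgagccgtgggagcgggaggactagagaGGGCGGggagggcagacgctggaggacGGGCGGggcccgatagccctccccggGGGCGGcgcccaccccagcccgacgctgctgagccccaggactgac

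The GC box was in 15 of the 25 windows, against 32.7% of all 32817 RefSeq windows of this length. Kcng3 held 4 copies and Kcnh6 3, while Kcnd3 and Kcnq5 had no match of any motif. The TATA box was in 0 of 25 windows (12.4% of all windows), the cAMP response element in 0 (1.55%) and the RUNX core in 4 (14%), Kcna4 among them. The member windows had a median GC content of 63.2% and 16 CG dinucleotides, against 52.4% and 6 over all windows. These are letter matches only, and genes differ in which start they use. The Kcnd3 window ends 440 bases before the 5′ end of the gene in the deposited tables. The last 24 bases of the Kcnh6 window lie inside its deposited first exon. Among windows not printed, the start lay 162637 bases from the deposited 5′ end for Kcna5. For Kcnh2, whose window had 3 GC boxes, it lay 22013 bases away.

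The main question was whether the neurons of the 2 levels differ, L6S1 against L345 with both sexes weighted equally. Of the 32 tested members, 1 passed an adjusted p under 0.05 (edgeR quasi-likelihood F-test, Benjamini-Hochberg over 15281 genes). It was Kcng1, lower at L6S1. Over all genes tested 2.33% passed in either direction and 0.877% lower, so a count of 1 in 32 is near that background. Without female L6S1 A, the library with fewest counts, 11 members passed, all lower (Kcna1, Kcna4, Kcnb2, Kcnc2, Kcnd3, Kcng1, Kcng2, Kcng3, Kcnh6, Kcnh7 and Kcnq5). In that fit 25.7% of all genes passed in either direction. It keeps as female L6S1 only B and C, the libraries that stood apart in their marker sums, here and wherever A is left out below. At an unadjusted p under 0.05, 11 members were lower and 1 (Kcna10) was higher, against 13.3% of all genes in each direction. For 24 of the 32 members (75.0%) the log2 change was negative, against 55.5% of all genes, and the median was -0.35 against -0.06. No member had all 6 L6S1 libraries below or above all 6 L345 libraries, while 1.22% of all genes did in the lower direction and 2.02% in the higher. In 9 members (28.1%) every L6S1 library was under the L345 average for its own sex, against 13.1% of all genes: Kcna1, Kcnb2, Kcnc4, Kcnd3, Kcng1, Kcng3, Kcns2, Kcnh1 and Kcnq5.

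**Figure D2:**
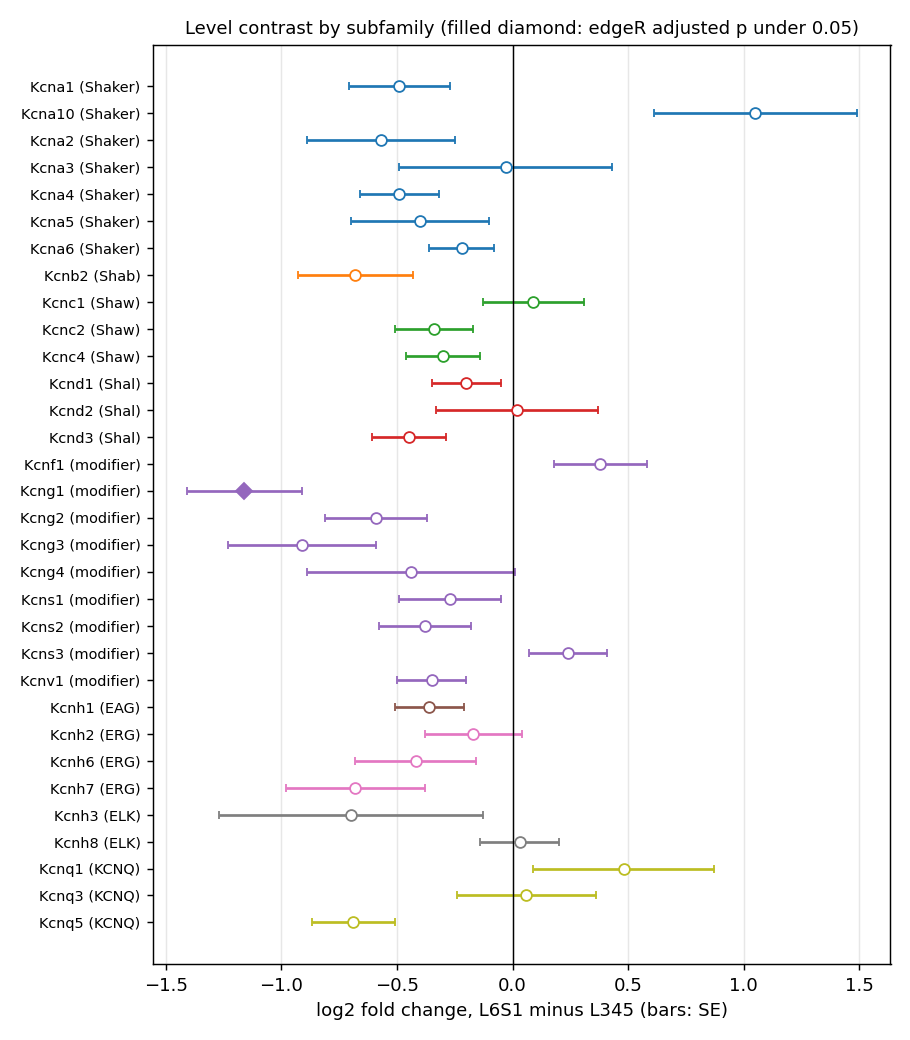
Level contrast of the 32 tested members, L6S1 minus L345, as log2 fold change with SE bars, grouped by subfamily. The filled diamond is Kcng1 (-1.16), the member that passed; 24 of the 32 points lie left of 0, and Kcna10 (1.05) lies farthest to the right.

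The downward tilt of the medians is set here beside other measures of the libraries. The per-library median deviation of the members from their 12-library mean was 0.01 to 0.26 (log2) at L345 and -0.38 to 0.07 at L6S1. Over all genes, the deviation of the longest decile minus that of the shortest was -0.15 to 0.41 at L345 and -0.64 to 0.06 at L6S1. The members have long transcripts (median exon length 4532 bases against 3569). Across the members the Spearman correlation of level change with exon length was -0.12, against -0.36 across all genes. With offsets for GC content and length in each library, the median of the members was -0.26 against -0.05 over all genes, and 23 of 32 were negative. Without female L6S1 B and C the median was -0.20 (-0.02 over all genes), and without female L6S1 A it was -0.44 (-0.08). The part that transcript length, fibroblast RNA and immune RNA played in these values was not tested.

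Among the silent modifier subunits, 7 of the 9 tested had a negative change and the median was -0.38. Kcng1 (ENSMUSG00000074575, chr2:168260117-168281736, minus strand, GRCm38) encodes a subunit that joins Shab channels and shifts their inactivation. It was at 2.97, 1.17 and 2.57 CPM in male L345 A, B and C, and at 4.68, 3.44 and 4.71 CPM in female L345 B, C and D. At L6S1 it was at 1.79, 0.888 and 1.01 CPM in males A, B and C, and at 1.52, 1.39 and 1.76 CPM in females A, B and C. In females the levels did not overlap, and in males B of L345 fell inside the L6S1 range. Kcng1 fell by 1.16 ± 0.25 on the log2 scale (edgeR adjusted p = 0.0329), lower in 6 of 6 L6S1 libraries. The adjusted p was 0.00905 to 0.104 when each library was left out in turn and stayed under 0.05 in 5 of these 12 fits. The change was between -1.34 and -1.03 over all 12. The call was lost without male L345 A (0.100) or C (0.104), female L345 B (0.0934) or C (0.0654), male L6S1 B (0.0799) or C (0.0814), or female L6S1 B (0.0581). It was also lost with a term for the title style that separates 2 sets of libraries (0.0884), with a change of -1.15. The second set holds male L6S1 C, female L6S1 B and C and female L345 D, so the sets are not balanced over the levels. The change was -1.09 in the first set alone and -1.18 without female L6S1 B and C together. Both of these fits keep A as the only female L6S1 library.

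Kcng3 (ENSMUSG00000045053, chr17:83585957-83631895, minus), a related silent subunit whose promoter window above held 4 GC boxes, had few reads, 4 to 52 in a library. It was at 1.60, 1.72 and 1.73 CPM in male L345 A, B and C, 1.50, 2.03 and 1.22 CPM in female L345 B, C and D, 1.35, 0.973 and 1.24 CPM in male L6S1, and 1.10, 0.695 and 0.167 CPM in female L6S1 A, B and C. Female L6S1 C was lowest, with 4 reads, near the floor for detection. The levels overlapped only through male L6S1 A and C against female L345 D. The level change was -0.91 ± 0.32 (edgeR adjusted p = 0.104). It was -0.52 without female L6S1 B and C, -1.19 without female L6S1 A (edgeR adjusted p = 0.0138) and -1.04 in limma-voom (0.0374).

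Kcns3 (ENSMUSG00000043673, chr12:11090202-11150842, minus), the most abundant silent subunit, took the opposite direction. It was at 41.2, 47.5 and 47.0 CPM in male L345, 37.2, 47.0 and 42.1 CPM in female L345, 54.4, 58.7 and 47.2 CPM in male L6S1, and 74.5, 35.6 and 38.4 CPM in female L6S1 A, B and C. Female L6S1 A was the highest of all libraries and B the lowest, so the levels overlapped. The change was 0.24 ± 0.17 (adjusted p = 0.376, edgeR), and it was 0.03 (0.881) without female L6S1 A. In the 8 libraries of the first title style, where female L6S1 is that library alone, it was 0.56 (edgeR adjusted p = 0.0235).

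Kcnv1 (ENSMUSG00000022342, chr15:45106284-45114934, minus), a silent subunit found in neurons, was at 43.4, 46.9 and 40.2 CPM in male L345 and 40.2, 41.3 and 39.9 CPM in female L345. At L6S1 it was at 33.8, 43.9 and 21.6 CPM in males and 37.2, 32.5 and 29.2 CPM in females. All L6S1 libraries except male B lay below every L345 library. The change was -0.35 ± 0.15 (edgeR adjusted p = 0.174). Of the remaining modifiers, Kcng2 was at -0.59 ± 0.22, Kcng4 at -0.44 ± 0.45, Kcns2 at -0.38 ± 0.20, Kcns1 at -0.27 ± 0.22 and Kcnf1 at 0.38 ± 0.20, and none passed.

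Kcnb2 (ENSMUSG00000092083, chr1:15287254-15723750, plus) encodes the Shab delayed rectifier of this set, the kind of subunit that the silent modifiers join. It was at 110, 157 and 95.8 CPM in male L345, 136, 116 and 68.3 CPM in female L345 B, C and D, 73.1, 87.2 and 73.2 CPM in male L6S1, and 89.3, 75.5 and 29.1 CPM in female L6S1 A, B and C. In males the levels did not overlap; in females D of L345 lay below A and B of L6S1, and L6S1 C was far below the rest. The change was -0.68 ± 0.25 (edgeR adjusted p = 0.113), lower in 6 of 6 L6S1 libraries. It was -0.39 with the GC and length offsets, -0.83 without female L6S1 A (edgeR adjusted p = 0.0232) and -0.73 in limma-voom (0.0206).

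The Shal subunits carry the A-type current that opens below threshold and delays firing. Kcnd1 (ENSMUSG00000009731, chrX:7822289-7838280, plus) was at 341, 243 and 343 CPM in male L345, 310, 357 and 316 CPM in female L345, 307, 282 and 252 CPM in male L6S1, and 273, 187 and 355 CPM in female L6S1 A, B and C. Its levels overlapped widely, with the lowest and nearly the highest value both in female L6S1. The change was -0.20 ± 0.15 (edgeR adjusted p = 0.386). Kcnd3 (ENSMUSG00000040896, chr3:105452330-105674002, plus) was at 89.9, 76.2 and 88.4 CPM in male L345, 95.7, 86.4 and 66.7 CPM in female L345, 53.7, 77.1 and 58.1 CPM in male L6S1, and 64.6, 72.9 and 41.0 CPM in female L6S1. The 6 L6S1 libraries were each under the mean of L345 in their sex, and the ranges overlapped between 66.7 and 77.1 CPM. The change was -0.45 ± 0.16 (edgeR adjusted p = 0.103), -0.49 without female L6S1 A (0.0439) and -0.55 in limma-voom (0.0152). The antisense gene Kcnd3os shares 165 exon bases with Kcnd3, and reads of the pair cannot be told apart unless counting used the strand, which the sources used here do not give.

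In the Shaker group 6 of 7 tested members had a negative change, with a median of -0.40, and none passed. Kcna4 (ENSMUSG00000042604, chr2:107290639-107298502, plus), an A-type subunit known from small sensory neurons, was at 44.0, 50.6 and 40.9 CPM in male L345 and 47.7, 41.2 and 36.9 CPM in female L345. At L6S1 it was at 30.5, 38.5 and 28.0 CPM in males and 42.5, 24.4 and 22.1 CPM in females A, B and C. Male libraries of the levels did not overlap, while female L6S1 A sat inside the L345 range. The change was -0.49 ± 0.17 (edgeR adjusted p = 0.0996), -0.44 with the GC and length offsets and -0.24 without female L6S1 B and C. It was -0.67 without female L6S1 A (edgeR adjusted p = 0.00309) and -0.54 in limma-voom (0.0165).

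Kcna6 (ENSMUSG00000038077, chr6:126708329-126740674, minus) was at 97.2, 65.5 and 104 CPM in male L345, 92.1, 91.3 and 84.3 CPM in female L345, 74.2, 79.8 and 70.2 CPM in male L6S1, and 69.6, 67.4 and 98.6 CPM in female L6S1. Male L345 B was the lowest and female L6S1 C the second highest, each against the order of its level. The change was -0.22 ± 0.14 (edgeR adjusted p = 0.318). Gm26673 on the opposite strand shares 2355 exon bases with it, so reads of the 2 genes may not be told apart. Kcna10, a subunit with few reads, was at 0.0402 to 0.225 CPM at L345 and 0.113 to 0.544 CPM at L6S1, higher in 6 of 6 L6S1 libraries, with a change of 1.05 ± 0.44 (edgeR adjusted p = 0.153). It had 1 to 13 reads in a library. Kcna1 (-0.49 ± 0.22), Kcna2 (-0.57 ± 0.32) and Kcna5 (-0.40 ± 0.30) were negative, and Kcna3 was at -0.03 ± 0.46.

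Of the Shaw genes, Kcnc2 (ENSMUSG00000035681, chr10:112271123-112466304, plus) was at 55.0, 52.1 and 53.9 CPM in male L345, 51.7, 46.0 and 43.8 CPM in female L345, 35.2, 49.3 and 41.0 CPM in male L6S1, and 51.5, 40.7 and 22.0 CPM in female L6S1. The male levels did not overlap, and in females the lowest value was in L6S1 C. The change was -0.34 ± 0.17 (edgeR adjusted p = 0.228). It was -0.12 without female L6S1 B and C, -0.48 without female L6S1 A (edgeR adjusted p = 0.0386) and -0.42 in limma-voom (0.0436). Kcnc4, an A-type Shaw subunit, was at -0.30 ± 0.16 and Kcnc1 at 0.09 ± 0.22, and neither passed.

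**Figure D3:**
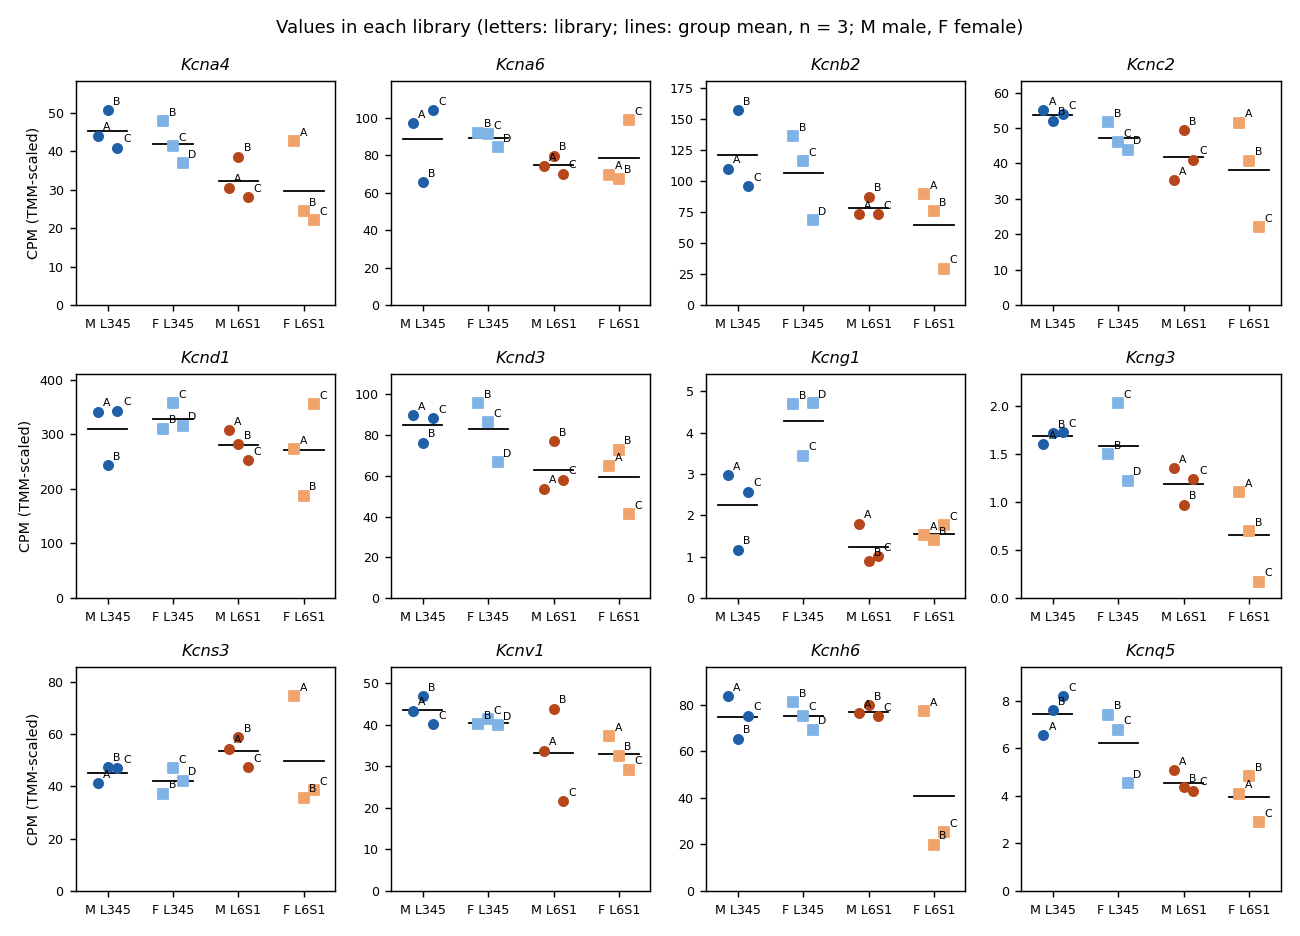
TMM-scaled CPM of 12 members in each library (points with library letters) and the group means (lines, n = 3), with each vertical axis starting at 0. The female L345 points of Kcng1 (3.44 to 4.71 CPM) stand above all L6S1 points (0.888 to 1.79 CPM), and for Kcnh6 female L6S1 B and C (19.9 and 25.1 CPM) stand below the other 10 libraries.

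The ERG channels pass a current that resists repeated firing. Kcnh6 (ENSMUSG00000001901, chr11:106008124-106034549, plus) was at 83.7, 65.4 and 75.3 CPM in male L345, 81.2, 75.2 and 69.3 CPM in female L345, 76.4, 79.7 and 75.1 CPM in male L6S1, and 77.1, 19.9 and 25.1 CPM in female L6S1 A, B and C. In 10 libraries it held between 65.4 and 83.7 CPM at both levels, and it was low in B and C of female L6S1 alone. The level change was -0.42 ± 0.26 (edgeR adjusted p = 0.299), and 0.03 without these libraries. It was -0.85 without female L6S1 A (edgeR adjusted p = 3.26e-04) and -0.65 in limma-voom (0.0170). The same 2 libraries had the lowest sums of the large myelinated neuron markers (1642 and 2553 CPM), a gap whose part in the Kcnh6 values was not tested. The most GC-rich decile minus the most GC-poor decile of all genes was at -0.84 in B and 0.42 in C, on opposite sides of 0. With GC and length offsets Kcnh6 was at -0.39. Kcnh7 (-0.68 ± 0.30) and Kcnh2 (-0.17 ± 0.21) did not pass. Among EAG and ELK genes, Kcnh1 was at -0.36 ± 0.15, Kcnh3 at -0.70 ± 0.57 and Kcnh8 at 0.03 ± 0.17, and none passed.

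Among the Kcnq genes, Kcnq5 (ENSMUSG00000028033, chr1:21398403-21961942, minus), an M-current subunit, had the second smallest p of all members. It was at 6.55, 7.60 and 8.20 CPM in male L345, 7.42, 6.79 and 4.53 CPM in female L345 B, C and D, 5.08, 4.36 and 4.21 CPM in male L6S1, and 4.09, 4.82 and 2.89 CPM in female L6S1. Female L345 D was the single L345 library inside the L6S1 range. The change was -0.69 ± 0.18 (edgeR adjusted p = 0.0557), lower in 6 of 6 L6S1 libraries, and missed the threshold. With GC and length offsets it was -0.57 (adjusted p = 0.0447), and over 23 alternatives it ran from -0.80 to -0.57 and passed in 9. Kcnq1 was at 0.48 ± 0.39 and Kcnq3 at 0.06 ± 0.30, so the Kcnq genes did not share 1 direction. Genes on the opposite strand share 237 exon bases with Kcnq5 (Gm26580), 121 with Kcnq1 (Kcnq1ot1) and 696 with Kcnh7 (Gca), so these reads too may not be told apart.

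**Figure D4:**
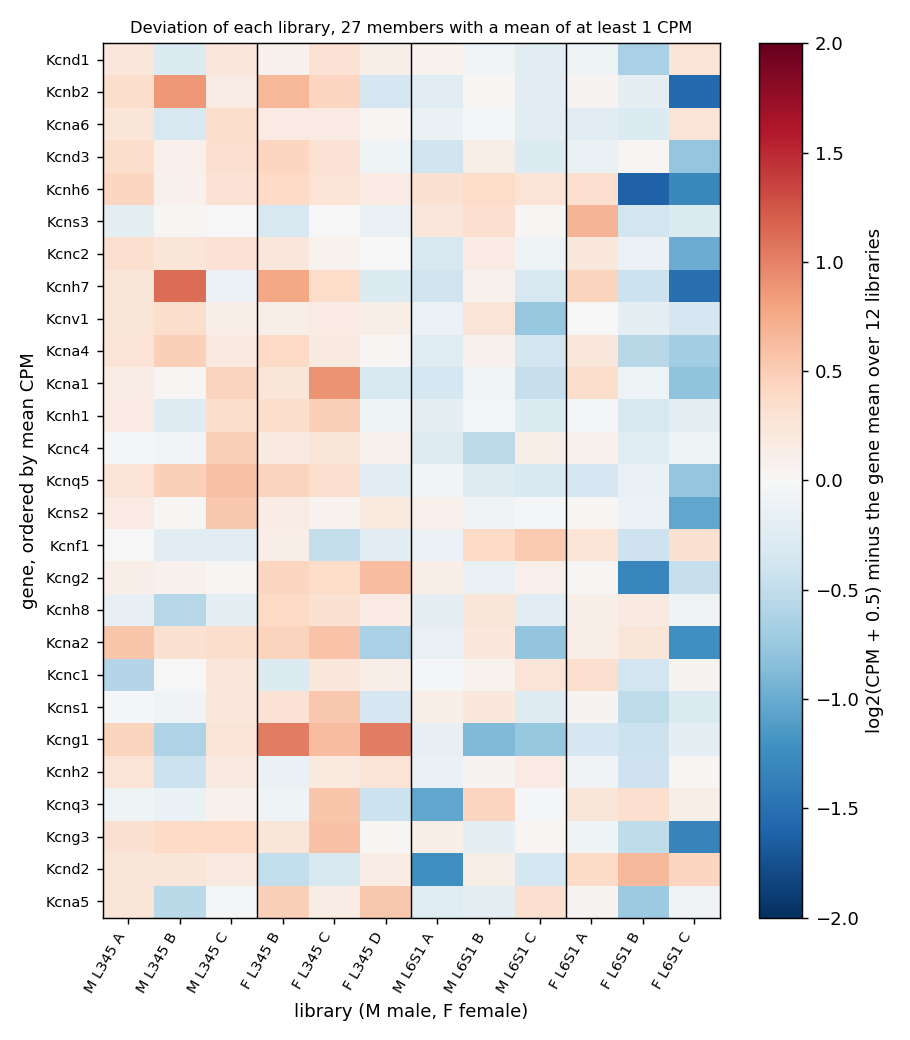
Deviation of each library from the gene's mean over the 12 libraries, as log2(CPM + 0.5), for the 27 tested members with a mean of at least 1 CPM. The library medians over all 32 tested members are 0.01 to 0.26 at L345 and -0.38 to 0.07 at L6S1, and Kcnh6 is among the darkest cells of female L6S1 B and C.

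The level contrast was also taken within each sex. In males 0 of 32 members passed (edgeR; 0.222% of all genes did), and 2 had an unadjusted p under 0.05, Kcng1 (-0.86 ± 0.36) and Kcnq5 (-0.71 ± 0.25), against 8.83% of all genes. In females 0 passed as well (0.360% of all genes), and 7 had an unadjusted p under 0.05 (24.0% of all genes): Kcna10 was higher, and Kcnd3, Kcng1, Kcng2, Kcng3, Kcnh6 and Kcnq5 were lower. DESeq2 called 0 members in males (0.713% of all genes) and 2 in females (Kcng1 and Kcng2; 4.91%). In limma-voom 5 were called in males (Kcna4, Kcnc2, Kcnd2, Kcnd3 and Kcnq5; 12.2% of all genes) and 0 in females (0.340%). The change was negative in both sexes for 20 of 32 members (62.5%, against 36.6% of all genes) and shared a sign for 24 (75.0% against 68.1%). Across the 32 genes the changes in the 2 sexes had a Pearson correlation of 0.40, given as a description, against 0.41 across all genes tested. Kcng1 (-0.86 and -1.45), Kcnb2 (-0.63 and -0.73), Kcna4 (-0.48 and -0.50) and Kcnq5 (-0.71 and -0.67) had negative changes in both sexes, none of which passed within a sex in edgeR.

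The test of the difference itself, the interaction of level and sex, called 0 members in edgeR (0% of all genes), with 2 at an unadjusted p under 0.05 (4.67% of all genes) and 0 in DESeq2 and limma-voom. The 2 were Kcnd2 and Kcng2. Kcng2, a silent subunit, was at 3.77, 3.05 and 3.68 CPM in male L6S1 against 3.50 to 3.77 CPM in male L345, and at 3.48, 1.09 and 2.34 CPM in female L6S1 against 4.57 to 5.49 CPM in female L345. Its interaction was -1.07 ± 0.45 (adjusted p = 0.871, edgeR). Between the sexes at both levels together, 0 members passed (0.0589% of all genes; 0 in DESeq2 and limma-voom), and 4 had an unadjusted p under 0.05 (5.96% of all genes). Kcna10 (1.08 ± 0.44), Kcng1 (0.63 ± 0.25) and Kcnh8 (0.40 ± 0.17) were higher in females and Kcna3 (-1.31 ± 0.47) lower.

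**Figure D5:**
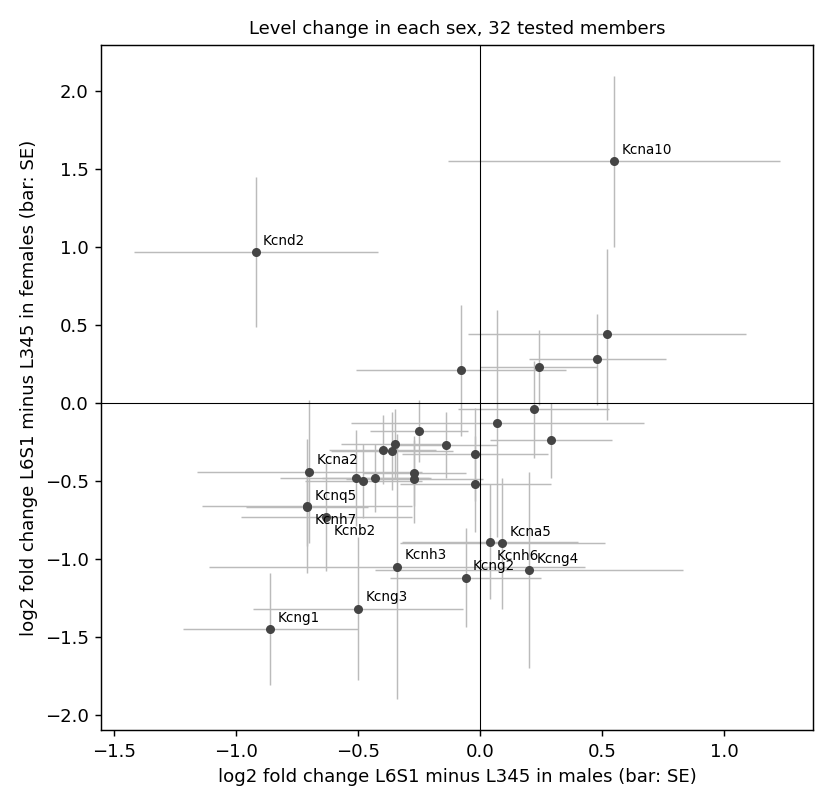
Level change of each tested member in males (horizontal) and females (vertical), as log2 fold change L6S1 minus L345 with SE bars. Most points lie in the lower left quadrant (20 of 32), Kcng1 farthest down, and Kcnd2 (-0.92 and 0.97) lies farthest into the upper left, where Kcnq3 (-0.08 and 0.21) lies too.

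Alpha subunits work with auxiliary proteins, of which 15 genes were listed and 13 tested. None passed between levels in edgeR (2.33% of all genes did). At an unadjusted p under 0.05 there was 1, higher at L6S1, against 13.3% of all genes in that direction. It was Kcne3, a single-span subunit of the KCNE family, at 2.07, 2.38 and 1.21 CPM in male L345, 2.70, 2.07 and 3.56 CPM in female L345, 3.05, 2.50 and 2.63 CPM in male L6S1, and 4.76, 3.91 and 7.91 CPM in female L6S1. Within each sex the levels did not overlap. Its change was 0.77 ± 0.23 (edgeR adjusted p = 0.0821), higher in 6 of 6 L6S1 libraries. DESeq2 (adjusted p = 0.0257; 9.94% of all genes) and limma-voom (0.0191; 21.4%) called it and no other auxiliary gene. The median change was -0.03, and 0.11 with GC and length offsets. The highest per length were Kcnip4 (152 ± 37.2 RPKM) and Kcnip2 (120 ± 18.4 RPKM), calcium-binding KChIP partners of the Shal subunits, Kcnab2 (72.7 ± 13.6 RPKM), a cytoplasmic beta subunit of Shaker channels, and Dpp6 (48.1 ± 4.53 RPKM), a membrane partner of Shal channels. Kcnip2 was at 355 to 403 CPM at L345 and 367 to 579 CPM at L6S1, a change of 0.24 ± 0.12 (edgeR adjusted p = 0.221). Kcnip4 was at -0.12 ± 0.20, Kcnab2 at -0.22 ± 0.16 and Dpp6 at -0.03 ± 0.11.

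A list of 12 genes drawn up around the clustering of Shaker channels along axons was tested too. It takes in LGI family genes, not all of which are known to cluster these channels. Cntnap2 is also among the listed large myelinated neuron markers. Of the 12 genes, 11 had a negative change (55.5% of all genes) and 0 passed in edgeR. At an unadjusted p under 0.05 there were 5, Lgi4 among them, all lower (13.3% of all genes). DESeq2 called 1, Cntnap2 (9.94% of all genes), and limma-voom 5, Cntnap2, Cntn2, Epb41l3, Adam22 and Adam23 (21.4%). Without female L6S1 A edgeR called 4, the same without Cntn2 (25.7%). The median was -0.31, and -0.14 with GC and length offsets, under which 10 of 12 were negative. Epb41l3, a membrane scaffold of the axon, was at 340 to 422 CPM at L345 and 216 to 350 CPM at L6S1, a change of -0.39 ± 0.13 (edgeR adjusted p = 0.0925). Adam22, a receptor for LGI proteins, was at -0.44 ± 0.15, Cntn2, an axonal adhesion molecule, at -0.35 ± 0.19 and its partner Cntnap2 at -0.49 ± 0.16. In each of these 4 genes the 6 L6S1 libraries were each under the mean of L345 in their sex.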

How the data were processed

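Input was 10 ng of RNA from each sorted pool, amplified with 12 PCR cycles, per the labels' protocols. The pool of male L345 C is given as 5 mice in 1 label field and as 3 in the protocol. For every library the authors deposited counts, CPM and RPKM of 41388 Ensembl genes. Subread alignment and counting by featureCounts 1.4.5 on GRCm38.p2 are named in the submitters' processing notes; for annotation release and strand setting, nothing is given in the sources used here. Only the deposited counts were tested. Deposited CPM is the count over its library total, and deposited RPKM is that CPM per kilobase. CPM printed here is TMM-scaled, and RPKM is that value per kilobase of deposited exon length.

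Symbols came from GENCODE M21, for 40254 genes (97.3%). The fit used edgeR 4.0.16 in R 4.3.3 (TMM, filterByExpr by group, robust quasi-likelihood, 4 group means, 8 residual degrees of freedom, 15281 genes). Fold changes are log2 ± SE, and calls need a Benjamini-Hochberg adjusted p under 0.05. Chi-square per degree of freedom within groups was 10.6 to 140.1, so no library repeats another. The code was tested on simulated counts. Alternatives were 2 other scalings (RLE, upper quartile), DESeq2 1.42.0, limma-voom (3.58.1) with sample weights, other filters, a term for the title style (later accessions have another wording), the first title style alone, a replicate block, GC and length offsets, no female L6S1 B and C, and each library left out.

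Values in every library are given for members called in any contrast, the 8 of highest mean RPKM and the 6 of smallest p between levels. Genes of the other lists are named if called or among the 4 highest by RPKM. Kcna10, Kcng2, Kcnd2, Kcnh8, Kcne3 and Adam23 are given beyond that rule and were chosen after these were seen. The members and lists were chosen with earlier results of these data known.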

Additional observations from a re-analysis of the deposited data

Results flagged for a closer look

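In 2 members the L6S1 libraries of the 2 sexes lay on opposite sides of the L345 means of their sex, all 3 one way in males and all 3 the other way in females. These are 6.25% of the 32 tested members, against 3.63% of all genes (555 of 15281). Kcnd2, a Shal subunit, was at 1.32, 1.32 and 1.25 CPM in male L345 and 0.159, 1.18 and 0.714 CPM in male L6S1, but at 0.599, 0.742 and 1.22 CPM in female L345 and 1.52, 1.91 and 1.59 CPM in female L6S1. Its interaction of level and sex was 1.89 ± 0.69 (log2; edgeR adjusted p = 0.871), which did not pass, and it had 4 to 44 reads in a library. Kcnh8, an ELK channel, was at 2.97, 2.13 and 2.93 CPM in male L345 and 2.90, 4.10 and 2.86 CPM in male L6S1, while females had 4.65, 4.30 and 3.86 CPM at L345 against 3.72, 3.91 and 3.22 CPM at L6S1. Its interaction was -0.53 ± 0.34 (edgeR adjusted p = 0.871), which did not pass either.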

How the results depend on the processing

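The count of members called between levels was 1 with RLE scaling (2.58% of all genes), upper-quartile scaling (3.57%) and a filter of 1 CPM in 6 libraries (2.88%). It was 2 with DESeq2 (9.94% of all genes), no filter (3.15%), and GC and length offsets (4.79%). With limma-voom it was 10 (21.4%), and with the title-style term 0 (0.818%). In the first title style alone and without female L6S1 B and C, the lone female L6S1 library is assumed to vary like the others. No count is given for those fits. Leaving out 1 library gave 0 to 11, the 11 without female L6S1 A (25.7% of all genes). Whether the letters pair the samples could not be told. Correlations of deviations between libraries of 1 letter were 0.018 to 0.233. Each male L345 library and female L345 B was closest to its own letter. Female L345 C was at 0.019 with L6S1 A and 0.018 with L6S1 C, and D has no library of its letter at L6S1. A fit with the letter as a replicate block called 5 (13.0% of all genes). In males limma-voom called 5 (12.2% of all genes). In females DESeq2 called 2 (4.91%) and no filter 1 (0.960%). Leaving out 1 library gave 0 to 7 members in females. It gave 0 to 1 between sexes, 0 to 2 for the interaction and 0 to 2 auxiliary subunits. Each was highest without female L6S1 A, where 24.5% (females), 6.32% (sexes), 5.21% (interaction) and 25.7% (levels) of all genes passed. Auxiliary calls were 1 with DESeq2 (9.94%), limma-voom (21.4%) and no filter (3.15%). The replicate block changed no other of these counts. Over all genes, 134 were called lower and 222 higher between levels (356), against 133 and 412 with upper-quartile scaling, 1766 and 1502 with limma-voom, 1025 and 960 with the replicate block, 2296 and 1735 without female L6S1 A, and 80 to 4031 in all over the alternatives.

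Of 32 members, 24 kept the sign of their level change in every alternative run. Kcna3 turned with upper-quartile scaling (0.04), DESeq2 (0.01), the title-style term (0.11), the first title style alone (0.22), without female L6S1 B and C (0.41), and in fits that left out 1 library (-0.33 to 0.31). Kcnd2 turned with limma-voom (-0.25), the title-style term (-0.10), without female L6S1 B and C (-0.05), and in such fits (-0.29 to 0.26). Kcng4 turned with the first title style alone (0.09) and without female L6S1 B and C (0.07), as did Kcnh6 (0.01 and 0.03), and Kcnh2 turned with offsets (0.14). Kcnh8 turned with limma-voom (-0.06), the replicate block (-0.02) and in such fits (-0.07 to 0.08), and Kcnq3 with limma-voom (-0.24), the first title style alone (-0.09), the replicate block (-0.01) and in such fits (-0.17 to 0.27). Kcnc1 turned in such fits (-0.03 to 0.20). No turned value passed the test, and the cause was not tested. Depth limits Kcna3, Kcna10, Kcng4, Kcnh3 and Kcnq1, which had under 1 CPM on average and as few as 1 to 6 reads in a library.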
